A study of Mus musculus with 15 samples.

Results

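Mitochondrial β-oxidation shortens a fatty acid by repeated cycles inside the mitochondrion, and each cycle releases acetyl-CoA and hands electrons to the respiratory chain. In the liver the pathway feeds ketone body synthesis during fasting. Inherited defects of its enzymes are known to cause low blood sugar and heart muscle disease. The mRNAs of 10 of its enzymes and carriers, chosen by gene name (Cpt2, Slc25a20, Acadvl, Acadl, Acadm, Acads, Hadha, Hadhb, Hadh and Acaa2), were followed here in liver and lung, among the 54532 genes of the tables.

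The mice were wild type male C57BL/6J, labelled as 28 weeks old, and ate either a control diet (CS) or a diet with 2% phytosterols (PS), the sterols of plants. By the methods that number is the time of feeding, adaptation included, so the mice would have been older at sampling. RNA-seq libraries came from 4 CS livers, 5 PS livers, 3 CS lungs and 3 PS lungs. Altogether 9 mice were used, and 6 of them gave both tissues. Each library is a piece of whole frozen tissue from 1 animal, so it holds every cell type of the organ.

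The 10 genes cover the pathway in order. Cpt2 and Slc25a20 bring the fatty acid in: Slc25a20 carries acylcarnitine across the inner membrane and Cpt2 turns it back into acyl-CoA. Acadvl, Acadl, Acadm and Acads encode the very long, long, medium and short chain acyl-CoA dehydrogenases, which open each cycle and pass electrons to the electron transfer flavoprotein. Hadha and Hadhb are the α and β subunits of the trifunctional protein, which finishes the cycle on long chains at the inner membrane, while Hadh (a dehydrogenase of shorter hydroxyacyl-CoAs) and Acaa2 (a thiolase) act in the matrix.

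RefSeq start-site windows were found for 9 of the 10 genes, from 250 bases before to 50 bases after the start (GRCm38.p6). The windows of 4 genes are printed: Acadvl, Hadha and Hadhb, with the lowest fitted PS against CS differences in lung, and Acadm, a dehydrogenase gene whose lung difference was near 0. Capitals mark every match, on either strand, to AGGTCA, the letters of the nuclear receptor element, or to GGGCGG, the GC box. The Acadvl window lies at chr11:70015379-70015678 (minus strand), Hadha at chr5:30154931-30155230 (minus strand), Hadhb at chr5:30155003-30155302 (plus strand) and Acadm at chr3:153944594-153944893 (minus strand).
Acadvl: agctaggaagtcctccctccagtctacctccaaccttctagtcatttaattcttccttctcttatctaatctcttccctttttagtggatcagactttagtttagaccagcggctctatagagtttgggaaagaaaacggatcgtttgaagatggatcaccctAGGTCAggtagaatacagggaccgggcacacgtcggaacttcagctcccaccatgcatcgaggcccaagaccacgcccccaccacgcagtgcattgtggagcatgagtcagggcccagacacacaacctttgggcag
Hadha: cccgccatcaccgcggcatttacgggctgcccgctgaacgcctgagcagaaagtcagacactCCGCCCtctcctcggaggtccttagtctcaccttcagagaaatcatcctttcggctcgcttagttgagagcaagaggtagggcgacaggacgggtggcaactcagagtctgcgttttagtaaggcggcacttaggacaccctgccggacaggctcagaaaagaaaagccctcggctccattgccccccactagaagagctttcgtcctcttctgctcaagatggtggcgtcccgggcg
Hadhb: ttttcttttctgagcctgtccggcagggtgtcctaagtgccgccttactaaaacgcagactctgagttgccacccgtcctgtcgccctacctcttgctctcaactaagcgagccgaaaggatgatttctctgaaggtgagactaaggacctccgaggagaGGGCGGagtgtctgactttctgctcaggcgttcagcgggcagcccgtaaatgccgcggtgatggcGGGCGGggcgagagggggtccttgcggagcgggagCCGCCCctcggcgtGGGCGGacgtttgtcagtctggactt
Acadm: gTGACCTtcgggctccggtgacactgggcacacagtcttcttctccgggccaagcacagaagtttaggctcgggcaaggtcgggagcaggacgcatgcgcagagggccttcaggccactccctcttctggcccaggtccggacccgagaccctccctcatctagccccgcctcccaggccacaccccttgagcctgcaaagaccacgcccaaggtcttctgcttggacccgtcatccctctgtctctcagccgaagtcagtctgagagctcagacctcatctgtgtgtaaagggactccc
Hadha and Hadhb are transcribed away from each other, with 85 bases between the ends of their gene models in the tables. The windows are set on RefSeq starts instead, and they share most of their bases on opposite strands. AGGTCA stood at −87 from the start of Acadvl and, on the other strand, at −249 from the start of Acadm, and in none of the other 7 windows. Of all 32851 windows of this length, 16.3% held it. GGGCGG was found once in the Hadha window and 4 times in the Hadhb window and in neither of the Acadvl and Acadm windows, against 35.7% of all windows with at least 1 match. A direct repeat of AGGTCA with 1 base of any kind between the copies, the element bound by PPAR and RXR pairs, was in none of the 9 windows and in 0.0396% of all windows.

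Library totals ran from 14410117 to 17625179 counts in liver and from 17934930 to 19396057 in lung. The 10 genes took 0.208% to 0.452% of the counts of a liver and 0.0703% to 0.0996% of those of a lung, and all 10 passed the filter on low counts in both tissues. Livers had hepatocyte markers at a summed level of 51600 to 84900, and lungs had alveolar type II markers at 8460 to 16300, so tissue labels and defining markers matched. CS replicate 2 stood apart among the livers: its log2 counts deviated from the tissue median with an SD of 0.853, against 0.332 to 0.643 in the other 8. The liver diet differences are therefore also given without it. Muscle markers were uneven among the lungs, with heart muscle markers summing to 175 in PS replicate 1 against 15.7 to 88 in the other 5 lungs, and skeletal muscle markers to 117 in CS replicate 3 against 0.424 to 2.49 elsewhere.

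Levels are given as RPKM, read counts scaled by gene length and library size, on 1 scale set over all 15 libraries. The plot of levels by library shows the tissue gap and the unequal spread of the genes.

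**Figure D1:**
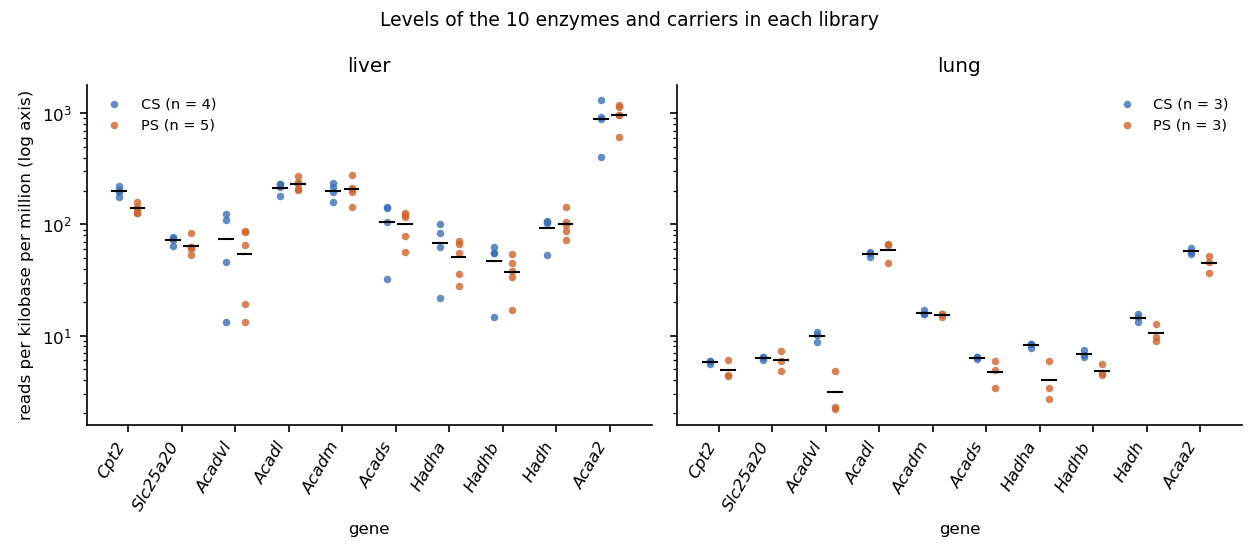
Level of each gene in each library (log axis, RPKM), with liver on the left and lung on the right. Points are libraries, blue for CS and orange for PS, and black bars are group means. Acadvl spreads from 13.3 to 125 in liver, and in lung all 3 PS points of Acadvl lie below the 3 CS points.

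Every one of the 10 genes was lower in lung than in liver, on CS and on PS alike. On CS, 10 of 10 passed the test (edgeR, adjusted p under 0.05) with lung lower, where 30% of the 17696 genes tested did so. On PS it was again 10 of 10, against 30.7% of all genes. Their median log2 difference was −3.29 on CS and −3.73 on PS, beside 0.18 over all genes on each diet. A list of 12 mitochondrial reference genes, Cs and Sdha among them, was mostly lower in lung as well. Of these, 11 passed the edgeR adjusted p with lung lower on CS and 12 on PS, with medians of −2.01 and −2.38. In whole tissue, fewer cells of a type and less RNA per cell cannot be told apart.

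Cpt2 showed the lowest fitted value. Its level was 222, 197, 177 and 203 in the CS livers and 5.9, 5.87 and 5.51 in the CS lungs, so lungs were 34.7 times lower (log2 difference −5.12, SE 0.225, edgeR adjusted p = 1.82e-11). On PS the livers held 127, 159, 128, 144 and 139 and the lungs 6.03, 4.37 and 4.34, a difference of −4.83 (SE 0.22). Slc25a20, its partner in fatty acid entry, was 11.5 times lower in lung on CS and 10.8 times lower on PS.

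The gap was narrowest for Acadl. CS livers had 229, 179, 218 and 230, and CS lungs 51.2, 55.5 and 56.5, which is 3.93 times lower in lung (log2 difference −1.98, SE 0.211, edgeR adjusted p = 4.23e-07). On PS the livers ran from 205 to 275 and the lungs read 67.2, 65.9 and 44.6, again 3.91 times lower. The highest lung on either diet, 67.2, was below the lowest liver, 179. For the other 3 dehydrogenases on CS, lungs were lower by 7.44 times for Acadvl, 12.6 times for Acadm and 16.7 times for Acads.

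Among the genes of the later steps, Acaa2 was 15.3 times lower in lung on CS and 21.7 times lower on PS. Hadha (8.26 and 12.9 times), Hadhb (6.85 and 7.79 times) and Hadh (6.42 and 9.71 times) lay between Acaa2 and Acadl on both diets. Within each of the 6 mice that gave both tissues, the liver level exceeded the lung level for all 10 genes. The closest case was Acadvl in mouse CS02 (13.3 in liver, 10.7 in lung, 1.24-fold), whose liver is the CS replicate 2 that stood apart; for Cpt2 the ratio within a mouse was 21 to 37.7.

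**Figure D2:**
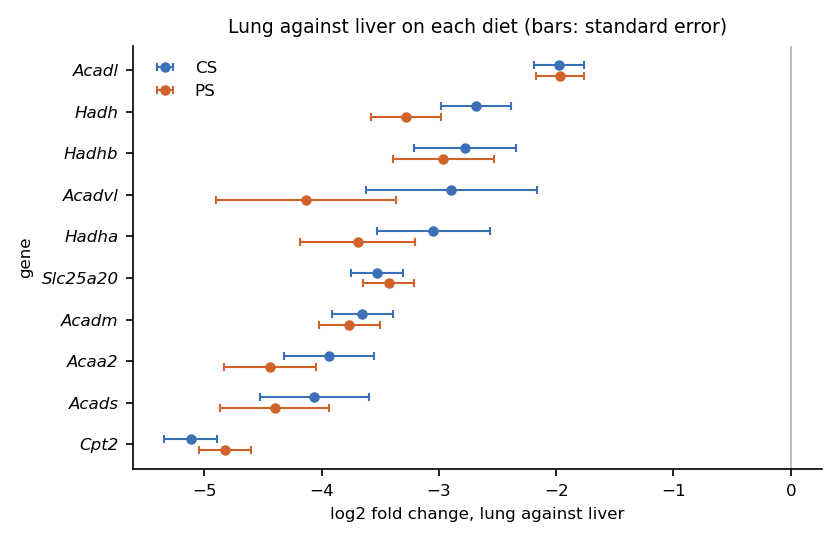
Fitted log2 difference of lung against liver for each gene on CS (blue) and PS (orange), with bars of 1 standard error. All points lie left of 0, from −5.12 for Cpt2 to −1.98 for Acadl on CS.

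Because Acadl was closest between the tissues, the make-up of the dehydrogenase group differed between them. Of the 4 dehydrogenase levels added up, Acadl made 37.4% ± 7.35 (SD, n = 4) in CS liver and 62.8% ± 0.825 (SD, n = 3) in CS lung. Acadm, which handles medium chains, went the other way, with 34.8% ± 4.62 in CS liver and 18.5% ± 0.722 in CS lung. Acads, for short chains, was 16.7% ± 5.64 in liver and 7.32% ± 0.447 in lung on CS. The liver and lung ranges of all 3 shares did not overlap on CS, and these shares were not tested. Acadvl held similar shares, 11.1% ± 6.6 in CS liver and 11.4% ± 0.611 in CS lung.

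**Figure D3:**
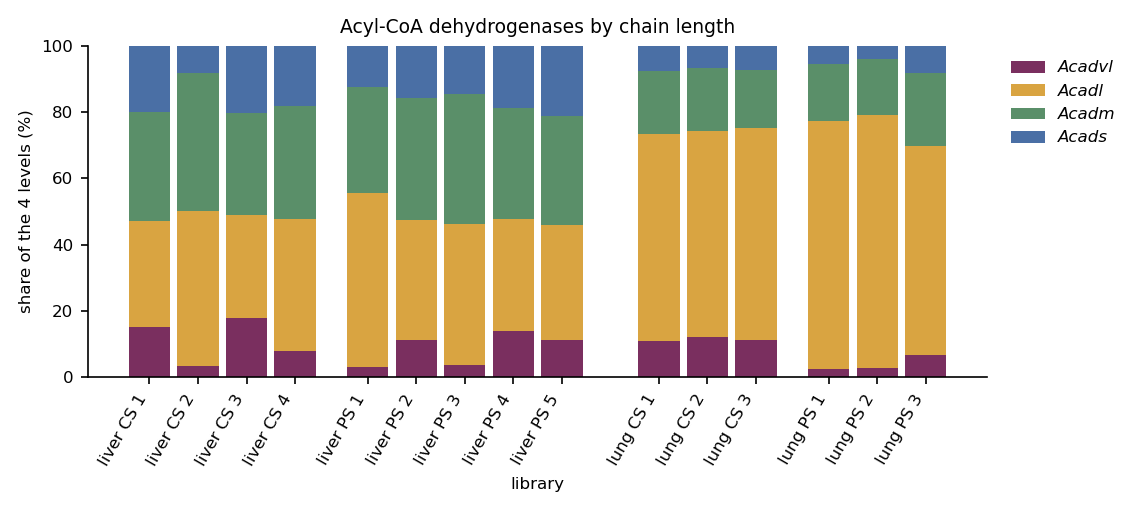
Share (%) of Acadvl, Acadl, Acadm and Acads in their summed level, 1 stacked bar for each library. Acadl takes 62.2% to 76.4% in the lungs and 31.1% to 52.7% in the livers, and Acadvl shrinks to 2.41%, 2.65% and 6.73% in the PS lungs.

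The order of levels within a tissue depended partly on the gene length used, since the tables count long merged models for some genes (8730 bases for Hadha, 4017 in its principal transcript). Acaa2 was the highest in all 9 livers with either length, at a median of 963. The dehydrogenase shares above use the gene length. With the principal transcript, Acadm stood above Acadl by median in liver (399 and 239). In lung Acadl stayed above Acadm (58.6 and 29.8). In lung Acadl and Acaa2 led with either length, at medians of 56 and 53.3, and did not differ beyond their spread: Acadl was above Acaa2 in 2 of 6 lungs with the gene length and in 4 of 6 with the principal transcript. Acadm and Hadh followed in lung, in an order that the choice of length turns. By the median over all 6 lungs Cpt2 came last with either length (5.69 and 5.73), though it was the fourth in liver with the gene length. This did not hold on each diet: with the gene length Cpt2 had the lowest mean in CS lungs (5.76), whereas in PS lungs its mean of 4.92 stood above those of Acadvl (3.08), Hadha (3.97), Acads (4.73) and Hadhb (4.84).

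Within the liver, CS and PS overlapped for 9 of the 10 genes, and Cpt2 was the exception. By adjusted p, 0 of the 10 genes passed the edgeR test, where 0.00758% of the 13195 genes tested did. At an unadjusted p of at most 0.05, 1 gene passed, against 7.55% of all genes, and DESeq2 called 1 gene (1.24% of all genes). The median log2 difference of PS against CS was −0.14 over the 10 genes and −0.03 over all genes. Without CS replicate 2 the median over the 10 was −0.30, and over the 9 livers left out in turn it reached 0.00 (without CS replicate 3).

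That gene was Cpt2. The CS livers held 222, 197, 177 and 203 and the PS livers 127, 159, 128, 144 and 139. No PS liver reached the lowest CS liver, a separation with PS lower that 1.33% of all genes showed. The log2 difference was −0.53 (SE 0.156, edgeR unadjusted p = 0.00543, adjusted p = 0.355), and DESeq2 gave an adjusted p of 0.00963. Without CS replicate 2 the log2 difference was −0.52 and the edgeR adjusted p 0.185. The clock genes of the same libraries were also apart by diet, summing to 58.5 to 104 in CS and 122 to 216 in PS livers. By the edgeR adjusted p 0 of these 13 passed in liver, 12 passed at an unadjusted p of at most 0.05 (9 higher and 3 lower on PS), and DESeq2 called 4 higher and 2 lower. Of the 4 hepatocyte markers, Alb, the albumin gene, lay higher in every PS liver, at 31400 to 40800 in CS and 43000 to 54500 in PS (log2 difference 0.40, edgeR adjusted p = 0.66), and the other 3 overlapped. Markers of other cell types lay lower on PS with no overlap: Clec4f, of Kupffer cells, at 43.7 to 54.6 in CS and 19.7 to 40.8 in PS, Cldn5, of endothelium, at 6.15 to 10.8 and 1.74 to 5.46, and Cidec, a lipid droplet gene of the fat list, at 17.9 to 57.3 and 2.65 to 16.8. None of the 3 passed the edgeR adjusted p (0.355, 0.232 and 0.29), and DESeq2 called 1 gene lower of 3 endothelial, 1 of 1 fat and 0 of 4 macrophage markers tested. Over the whole lists, the summed level in CS and PS livers was 12.4 to 19.1 and 5.02 to 13.7 for endothelium, 17.9 to 57.4 and 2.65 to 16.8 for fat, and 60.6 to 104 and 23.3 to 71.3 for macrophages. The fat sum was almost wholly Cidec, and Clec4f was the largest part of the macrophage sum in every liver. The other endothelial and macrophage markers overlapped between diets. The part of the clock genes and of these markers in the Cpt2 values was not tested.

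Acadvl varied most from liver to liver. Its level was 109, 13.3, 125 and 46.1 in CS and 13.3, 85.3, 19.3, 87.1 and 65.5 in PS, so the groups overlapped almost wholly, and the highest liver was 9.43 times the lowest. The log2 difference was −0.45 with an SE of 0.651 (edgeR adjusted p = 0.948). Single livers moved this value widely, from −0.79 without CS replicate 2 (edgeR adjusted p = 0.522) to −0.06 without CS replicate 3 (edgeR adjusted p = 0.995). Low livers were CS replicate 2, PS replicate 1 and PS replicate 3.

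The same 3 livers were low for Hadha and Hadhb. Hadha read 101, 21.7, 84.6 and 62.5 in CS and 27.9, 71.3, 35.8, 67 and 54.8 in PS (log2 difference −0.40, SE 0.398). Hadhb read 62.8, 14.8, 54.8 and 55.2 in CS and 16.8, 54.2, 33.9, 45.1 and 38.4 in PS (log2 difference −0.32, SE 0.396). Each overlapped between diets. With CS replicate 2 left out the differences became −0.69 for Hadha and −0.61 for Hadhb, with edgeR adjusted p-values of 0.317 and 0.363. Over the 9 livers left out in turn, Hadha ran from −0.69 to −0.15 (without CS replicate 1) and Hadhb from −0.61 to −0.14 (without PS replicate 1).

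The remaining 6 genes were closer to 0 in liver. Slc25a20 lay at −0.19 (SE 0.171), Acadl at 0.11 (SE 0.164) and Acadm at 0.03 (SE 0.207) on the log2 scale. Acads was at −0.09 (SE 0.382), Hadh at 0.12 (SE 0.249) and Acaa2 at 0.14 (SE 0.302). Without CS replicate 2 these became −0.22 for Slc25a20, 0.04 for Acadl, −0.06 for Acadm, −0.38 for Acads, −0.06 for Hadh and −0.10 for Acaa2, and 0 of the 10 genes passed the edgeR adjusted p. Acadl was the steadiest across the 9 livers, with its highest liver 1.53 times the lowest, followed by Slc25a20 (1.57), Cpt2 (1.75) and Acadm (1.92), whereas Acads reached 4.47 and Acaa2 3.28.

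**Figure D4:**
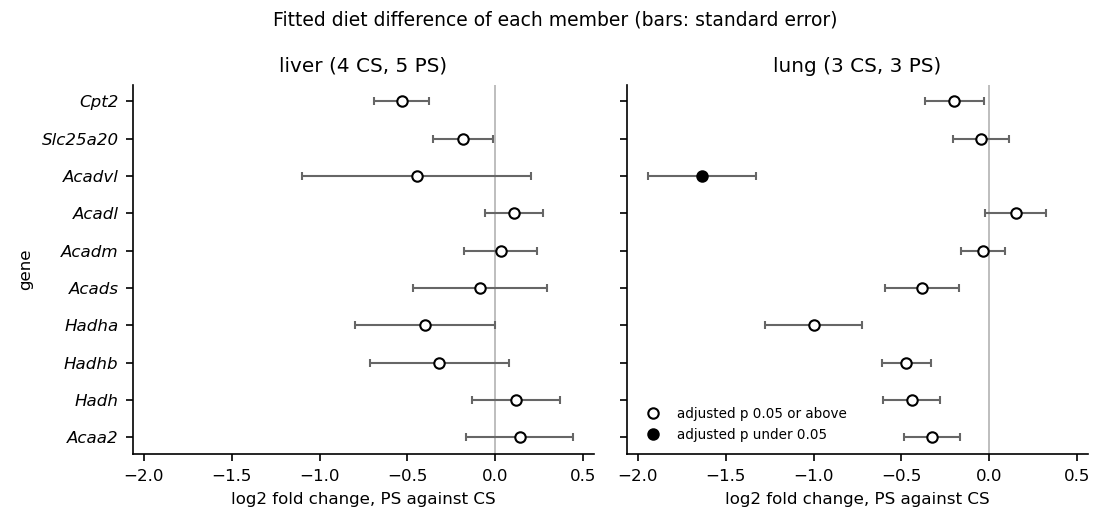
Fitted log2 difference of PS against CS for each gene in liver (left) and lung (right), with bars of 1 standard error. The filled point is the 1 value with an adjusted p under 0.05, Acadvl in lung at −1.64. In liver, Cpt2 lies at −0.53 and the other 9 between −0.45 and 0.14.

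In lung, Acadvl fell on PS. The CS lungs had 8.83, 10.7 and 10.1 and the PS lungs 2.17, 2.28 and 4.77, with no overlap. Acadvl (chr11:70010183-70015411, minus strand, ENSMUSG00000018574) was the 1 gene of the 10 past the adjusted p, beside 9.22% of the 16717 genes tested (4.43% with PS lower). Its log2 difference was −1.64 (SE 0.307, edgeR adjusted p = 0.0255), a level 3.11 times lower on PS.

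The Acadvl call was lost when any 1 of 4 lungs was left out. Leaving out CS replicate 1, 2 or 3 gave Acadvl an adjusted p of 0.0892, 0.0928 or 0.0813, and leaving out PS replicate 2 gave 0.0936. It was 0.0233 without PS replicate 1 and 0.00257 without PS replicate 3, and the log2 difference ran from −2.13 to −1.43 over the 6. In these 4 fits the genes called over the whole table numbered 23, 26, 0 and 9, against 1542 with all lungs.

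Acadvl shares 1151 exon bases with Dvl2, a Wnt signalling gene on the opposite strand, and the library kit does not mark strand. Dvl2 itself was at 1.44, 1.55 and 1.74 in CS lungs and 1.62, 1.5 and 1.64 in PS lungs, overlapping between diets and below Acadvl in every lung. Its log2 difference was 0.04 (edgeR adjusted p = 0.888). The very long chain enzyme also lost share within its family: 11.4% ± 0.611 (SD, n = 3) of the dehydrogenase sum in CS lung and 3.93% ± 2.43 (SD, n = 3) in PS lung, without overlap.

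The trifunctional protein genes were lower in all 3 PS lungs too, but did not pass the adjusted threshold. Hadha (chr5:30118304-30155162, minus strand, ENSMUSG00000025745) read 7.71, 8.44 and 8.35 in CS and 3.36, 2.67 and 5.86 in PS (log2 difference −1.0, SE 0.274, edgeR adjusted p = 0.053). Hadhb (chr5:30155248-30184593, plus strand, ENSMUSG00000059447) read 6.44, 6.74 and 7.36 in CS and 5.51, 4.57 and 4.43 in PS (log2 difference −0.47, SE 0.138, edgeR adjusted p = 0.0615). DESeq2 called both, with adjusted p-values of 0.00467 and 0.0298, and called 3 of the 10 genes in all, beside 18.5% of all genes. The ratio of Hadha to Hadhb within a lung was 1.2, 1.25 and 1.14 on CS and 0.611, 0.584 and 1.32 on PS, so PS replicates 1 and 2 lay below the CS lungs and PS replicate 3 above them.

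Hadhb values carry an uncertainty of their own. The gene Gm13910 matches the Hadhb transcript at 99.79% over 1428 bases, and how reads are split between the 2 is not known. Gm13910 had 581, 449 and 445 counts in the CS lungs and 154, 108 and 221 in the PS lungs, and it fell by 1.49 on the log2 scale (edgeR adjusted p = 0.0217). Added together, Hadhb and Gm13910 had 2060, 1966 and 2026 counts in CS and 1233, 1076 and 1203 in PS, with no overlap. The sum passed the test at a log2 difference of −0.66 (SE 0.134, edgeR adjusted p = 0.0303), with 9.22% of all genes called in that fit. Gm9108, a second copy at 97.6% over 1426 bases, had 21, 16 and 19 counts in CS lungs and 1, 0 and 1 in PS lungs (edgeR adjusted p = 0.0194). Garem2, which shares 75 exon bases with Hadha on the opposite strand, had at most 2 counts in any library.

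Of the other genes, Hadh had 13.2, 14.6 and 15.6 in CS lungs and 12.7, 8.91 and 9.75 in PS lungs, a log2 difference of −0.44 (SE 0.16, edgeR unadjusted p = 0.022, adjusted p = 0.104). Acads was at −0.38 (SE 0.211) and Acaa2 at −0.33 (SE 0.158), and neither overlapped between diets. With 1 lung left out Acads ran from −0.60 to −0.19 and Acaa2 from −0.43 to −0.20. Cpt2 (−0.20, SE 0.167), Slc25a20 (−0.04, SE 0.16), Acadm (−0.03, SE 0.126) and Acadl (0.15, SE 0.173) overlapped. Acadm was nearly constant, from 14.6 to 16.9 over the 6 lungs.

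Counted together, 6 of the 10 genes had every PS lung below every CS lung, where 20.5% of all genes did, and 0 had the reverse. At an unadjusted p of at most 0.05, 4 passed with PS lower, against 14.5% of all genes. The median over the 10 was −0.35, and over all genes 0.01. Without PS replicate 2 the median over the 10 was −0.19, and it was −0.41 to −0.32 with any other lung left out. Among 4 alveolar type II markers 0 passed the adjusted p and 1 passed at an unadjusted p of at most 0.05, with a median of 0.00. That was Sftpc, a surfactant protein gene, at 7630, 7100 and 7160 in CS and 14800, 14600 and 8500 in PS (log2 difference 0.82, edgeR adjusted p = 0.0764), and it made up most of the summed level of the list. DESeq2 called 1 of the 4, with PS higher. Sftpb (0.04), Sftpa1 (−0.04) and Lamp3 (−0.26) overlapped between diets. Fat markers summed to 13.3, 21.4 and 4.26 in CS and 12.8, 3.13 and 2.15 in PS, with 0 of 4 called by edgeR or DESeq2. Single genes of 3 further lists lay lower in every PS lung without passing the edgeR adjusted p. Cidea, of brown fat, read 2.91, 2.44 and 6.8 in CS and 2.32, 0.722 and 1.48 in PS (edgeR adjusted p = 0.0998). Dnah5, of ciliated airway cells, read 2.41, 2.94 and 3.33 in CS and 0.974, 0.223 and 1.31 in PS (edgeR adjusted p = 0.0866). Actc1, of heart muscle, read 21.1, 30.6 and 25.4 in CS and 19.8, 7.23 and 13.4 in PS (edgeR adjusted p = 0.0939), although 4 of the 6 heart muscle markers had fitted values above 0 (median 0.12). The sums of these lists overlapped between diets, at 10.1 to 31 in CS and 6.08 to 18.7 in PS for brown fat, 37 to 61 and 16.8 to 53.7 for ciliated cells and 52.4 to 88 and 15.7 to 175 for heart muscle. DESeq2 called 1 brown fat, 1 heart muscle and 0 ciliated markers, the called ones lower. Of 3 macrophage markers tested, Adgre1 (F4/80) fell, from 3.55, 2.65 and 2.56 in CS to 1.87, 1.44 and 1.56 in PS (log2 difference −0.81, edgeR adjusted p = 0.0448), while the list summed to 8.68 to 12.3 in CS and 7.39 to 14.4 in PS. Heart markers were highest in PS replicate 1 (175), a lung with Acadvl at 2.17, and lowest in PS replicate 2 (15.7), with Acadvl at 2.28. The part of these markers in the diet differences was not tested.

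Clock genes, which keep the daily rhythm of the tissue, differed by diet in the lungs that gave the Acadvl, Hadha and Hadhb values. Of 13, 4 rose and 1 fell at an adjusted p under 0.05, where 9.22% of all genes were called in either direction, and DESeq2 called 7 higher and 1 lower. Ciart had 1.37, 0.907 and 1.24 in CS lungs and 1.85, 6.92 and 12.1 in PS lungs (log2 difference 2.62, SE 0.623, edgeR adjusted p = 0.0448). Nr1d1 (1.29), Per1 (0.92) and Nr1d2 (0.80) rose as well, and Cry1, a repressor of the clock, fell by 0.79 on the log2 scale. The summed level was 41.8, 52.1 and 46.8 in CS and 51.7, 73.2 and 83.3 in PS, so PS replicate 1 overlapped the CS lungs. The part of these genes in the lung values of the 10 was not tested.

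In lung, the trends of the counts with GC content and gene length also went with diet, for gene length only narrowly. In liver both trends overlapped between diets. The rank correlation of each gene's deviation with its GC content was −0.206, −0.096 and −0.184 in CS lungs and 0.036, 0.106 and 0.334 in PS lungs. With that trend removed from each library, a step chosen after seeing the data, Acadvl was at −1.68 with an edgeR adjusted p of 0.0197 and stayed the only gene of the 10 called. The rank correlation with gene length was 0.14, 0.166 and 0.021 in CS lungs and −0.303, −0.025 and 0.013 in PS lungs. With the length trend removed, Acadvl was at −1.66 (edgeR adjusted p = 0.0186) and Hadha passed as well, at −0.90 (edgeR adjusted p = 0.0492).

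Diet effects of lung and liver were then set against each other in 1 model over all 15 libraries. None of the 10 genes passed: 0 at the adjusted threshold (0.0226% of all genes passed) and 0 at an unadjusted p of at most 0.05 (10.9% of all genes) by edgeR, and 0 at the adjusted threshold by DESeq2 (1.46% of all genes). Acadvl had the lowest value, with the lung effect 1.24 below the liver effect on the log2 scale (SE 0.914, edgeR adjusted p = 0.623). For Hadha the figure was −0.65 (SE 0.593) and for Cpt2 0.29 (SE 0.251). With 1 library left out Hadha ran from −1.04 to −0.35 and Cpt2 from 0.11 to 0.37. The median over the 10 was −0.26, and 0.03 with only the 6 mice that gave both tissues. The Acadvl fall in lung was thus not shown to differ from its liver value.

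Across libraries the 10 genes split into those that moved together and those that did not. After subtracting each tissue's mean, Acadvl and Hadha had the closest pattern over the 15 libraries (Pearson r = 0.964). Against the mean of the other 9 genes, r was 0.79 to 0.948 for Acadvl, Acadm, Acads, Hadha, Hadhb, Hadh and Acaa2. It was 0.461 for Slc25a20, 0.336 for Cpt2 and 0.15 for Acadl. These libraries share animals, tissue and processing, so the coefficients are given as descriptions.

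**Figure D5:**
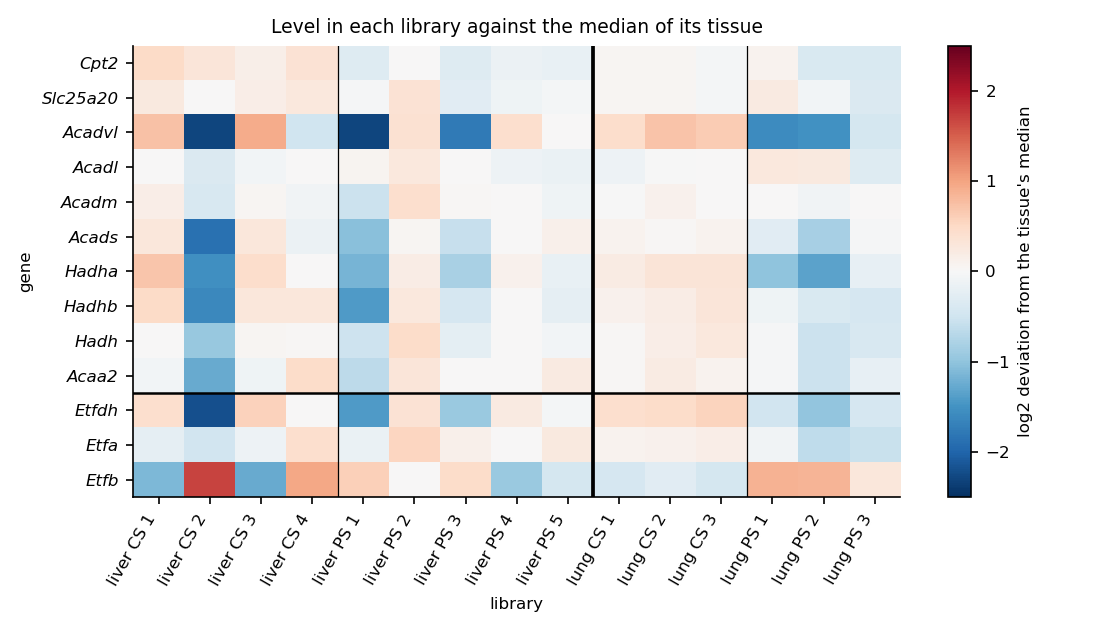
Log2 deviation of each library from the median of its tissue, for the 10 genes and, under the line, the genes of the electron transfer flavoprotein and its dehydrogenase. Blue is below and red above the median. Acadvl, Acads, Hadha, Hadhb and Etfdh are low together in liver CS 2, PS 1 and PS 3, while Etfb is high there.

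Outside the 10, the pattern most like their mean among 12388 genes was that of Etfdh (r = 0.987), followed by Sdha (0.977), Ppp2ca (0.973), Tbcd (0.971) and Pdhx (0.97), each over 15 libraries. Etfdh encodes the enzyme that takes electrons from the electron transfer flavoprotein to ubiquinone, and Sdha the flavoprotein subunit of succinate dehydrogenase. In liver Etfdh read 75.8, 12.4, 84 and 56.5 on CS and 21.2, 72.9, 29.9, 65.8 and 54.3 on PS. Its low livers were the same 3 as for Acadvl.

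Partner genes of the pathway, a list of 13 of which 12 were tested in lung, moved both ways there. Of these, 2 fell and 2 rose at an edgeR adjusted p under 0.05, where 9.22% of all genes were called, and the list median was −0.11. DESeq2 called 4 lower and 2 higher, beside 18.5% of all genes. With no overlap, 5 lay lower on PS, where 20.5% of all genes did, and 2 lay higher. Etfdh fell from 3.05, 3.12 and 3.36 in CS lungs to 1.64, 1.16 and 1.71 in PS lungs (log2 difference −1.04, SE 0.182, edgeR adjusted p = 0.0217). Decr1, the reductase needed for unsaturated fatty acids, fell by 0.62 (SE 0.145, edgeR adjusted p = 0.0388).

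Etfb, the β subunit of the electron transfer flavoprotein, rose instead. It had 5.01, 5.54 and 4.93 in CS lungs and 12.2, 12.1 and 8.13 in PS lungs (log2 difference 1.10, SE 0.195, edgeR adjusted p = 0.0221). Etfa, the α subunit, was at −0.49 (edgeR adjusted p = 0.0821), and the ratio of Etfb to Etfa went from 0.147 to 0.173 on CS to 0.404 to 0.632 on PS. Cpt1c, the brain form of the outer membrane transferase, was at 0.312, 0.47 and 0.345 in CS lungs and rose by 1.53 on the log2 scale (edgeR adjusted p = 0.0347). Cpt1a, the liver form and the known control point of entry, was at −0.45 (edgeR adjusted p = 0.0673) with all 3 PS lungs below the CS lungs.

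In liver 0 of the 12 partners tested passed the adjusted p with edgeR or DESeq2. At an unadjusted p of at most 0.05, 2 passed, against 7.55% of all genes, both with PS lower: Crat (−0.59), which exchanges acetyl groups with carnitine, and Slc22a5 (−0.67), the carnitine importer. Against liver, 11 of the 12 partners passed the edgeR adjusted p with lung lower on each diet, beside 30% of all genes on CS and 30.7% on PS. Cpt1c had the opposite sign, at a log2 difference of 1.39 on CS, which was not called, and 2.47 on PS, which was.

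Dehydrogenases of amino acid breakdown, which run the same kind of reaction on other substrates, gave 0 of 4 calls in either tissue by diet, with edgeR at the adjusted p, with edgeR at an unadjusted p of at most 0.05 and with DESeq2. Their lung differences ran from −0.07 for Acadsb to 0.50 for Ivd, with a median of 0.30. All 4 were lower in lung than in liver on both diets, most so Gcdh (log2 difference −5.90 on CS).

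Sdha, whose pattern was close to that of the 10 genes, fell in PS lungs: the CS lungs had 30.9, 29.7 and 29.7 and the PS lungs 19.2, 13.1 and 20.3 (log2 difference −0.75, SE 0.186, edgeR adjusted p = 0.0427). Cs, the citrate synthase often used to gauge mitochondrial content, was at 12.5, 11.8 and 10.8 in CS lungs and 13.7, 11.4 and 9.3 in PS lungs, overlapping between diets (edgeR adjusted p = 0.998). Of the 12 mitochondrial reference genes, which include both, 10 had fitted lung values below 0, with a median of −0.13. By the edgeR adjusted p, 2 were lower and 0 higher on PS, where 4.43% of all genes were lower. DESeq2 called 3 lower and 0 higher, beside 18.5% of all genes. In 5 of the 12 every PS lung lay below every CS lung, against 20.5% of all genes. In liver neither Sdha nor Cs passed the test, with log2 differences of −0.10 for Sdha and 0.08 for Cs.

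PPARα is the receptor known to drive many of these genes. Ppara was at 0.359, 0.336 and 0.416 in CS lungs and 0.0615, 0.073 and 0.132 in PS lungs, and fell by 2.00 on the log2 scale (SE 0.413, edgeR adjusted p = 0.0312). It was the 1 gene called among the 6 tested of 8 PPAR and coactivator genes in lung. In liver it read 21.2, 6.62, 40 and 11.2 on CS and 9.13, 13.3, 8.31, 21.7 and 12.6 on PS, overlapping between diets (log2 difference −0.61, edgeR adjusted p = 0.826). Of the 8 genes of this list tested in liver 0 passed the adjusted p with edgeR or DESeq2, and 1 passed at an unadjusted p of at most 0.05: Ppargc1a, the coactivator PGC-1α, at 0.862 to 2.19 in CS and 2.33 to 3.4 in PS livers (log2 difference 0.79, edgeR adjusted p = 0.463). In lung Ppargc1a lay the other way, at 0.588, 0.551 and 0.554 in CS and 0.491, 0.255 and 0.284 in PS (log2 difference −0.69, edgeR adjusted p = 0.148). Among 6 further PPAR target genes, 0 passed the adjusted p in either tissue with edgeR. At an unadjusted p of at most 0.05, 3 of the 5 tested in liver passed, all with PS lower, against 7.55% of all genes. In lung 3 of 6 passed with PS lower, where 14.5% of all genes did, and 1 passed with PS higher. DESeq2 called 1 in liver (1.24% of all genes) and 2 in lung (18.5% of all genes), all lower on PS. Lung values of the 6 ran from −1.22 for Acot1 to 0.47 for Angptl4.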

How the data were processed

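Poly-T selected RNA from whole liver and lung was sequenced as 150 base paired reads. The authors removed adapter and low quality reads, aligned with HISAT2 2.0.5 to mm10 and deposited gene counts and FPKM from featureCounts 1.5.0-p3, along with DESeq2 comparison columns (fold changes and p-values) that were not used. The gene annotation is not given in the sources used here. Gene starts and ends matched GENCODE M21 for 9 of the 10 genes. The 10 genes and all lists were chosen with earlier results of these data known.

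The deposited counts were tested with the robust quasi-likelihood test of edgeR 4.0.16 (R 4.3.3, TMM, default expression filter, Benjamini-Hochberg adjustment over all genes tested), by diet within each tissue and, for lung against liver and the difference of diet effects, in 1 fit of 4 groups over 15 libraries. Alternatives were DESeq2 1.42.0, other scalings and filters, limma 3.58.1 on log2(FPKM + 1) or log2(FPKM + 0.1) of the deposited FPKM, removal of length or GC trends, replicate or mouse blocks and leaving out each library. Fits were tested on simulated data. Libraries of a group differed from each other beyond sampling noise. Mice link liver and lung: deviations of the 2 tissues of 1 mouse correlated at −0.07 to 0.147, and blocking on mouse left 10 of 10 genes lower in lung on each diet. Named were all 10 genes, and from the partner, PPAR and clock lists those called by diet; the rule also took the genes at both ends of each list in lung, which are given in part. Genes that overlap or closely match the 10 were named as well, and others were picked after their values were seen. Depth is given as total counts, and the SDs of shares are over animals. Each library is 1 animal. Results of 1 listed gene are not reported here.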

Additional observations from a re-analysis of the deposited data

Results flagged for a closer look

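Among 40 sets of livers examined (levels, shares and ratios on each diet), 3 had a library farther from the rest than Dixon's 95% critical value, and chance alone marks about 1 set in 20. All 3 are CS replicate 2. Hadhb was at 14.8 there, against 54.8 to 62.8 in the other CS livers. Hadh was at 53.6, against 104 to 108. Acads made 8.36% of the dehydrogenase sum, against 18.4% to 20.2%. The cause was not tested. Lungs, with 3 in each diet, were not examined this way, and 0 of the 10 genes had non-overlapping diet differences of opposite sign in the 2 tissues. Among 107 genes looked at, the 10 and the other lists, 1 had: Ppargc1a was higher in every PS liver and lower in every PS lung. Its lung effect minus its liver effect was −1.52 on the log2 scale (SE 0.42), which edgeR did not call (unadjusted p = 0.00225, adjusted p = 0.264). It was the 1 gene of the 8 PPAR and coactivator genes at an unadjusted p of at most 0.05 there. DESeq2 called 1 of these 8 in the same comparison, with the lung effect lower, beside 1.46% of all genes.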

How the results depend on the processing

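All 10 genes were lower in lung on both diets in every alternative run. Acadvl in lung kept its sign throughout, and its adjusted p was at or under 0.028 in every fit that kept all 6 lungs. The number of the 10 called in lung was 3 with DESeq2, 2 with no filter, with the replicate block, with the length trend removed or with Gm13910 counted with Hadhb, 4 at the unadjusted p, and 0 to 3 when a lung was left out. In liver it was 1 with DESeq2 and 1 at the unadjusted p.

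Over all genes, liver calls numbered 996 at the unadjusted p, 163 with DESeq2, 26 with no filter, 6 or 4 with limma (pseudocount 1 or 0.1), 2 with at least 10 counts in every library or with the GC trend removed, 0 with the length trend removed or the replicate block, and 0 to 65 when a liver was left out. Lung calls numbered 1542 as reported, 5040 at the unadjusted p, 3090 with DESeq2, 2306 with no filter, 1623 with the replicate block, 1897 with the length trend removed, 1542 with Gm13910 counted with Hadhb, and 0 (without CS replicate 3) to 2949 (without PS replicate 1). For the difference of diet effects the number was 1935 at the unadjusted p, 228 with DESeq2, 10 with no filter, 0 with the mouse block or with the 6 shared mice alone, and 0 to 12 when a library was left out. With at least 10 counts in every library, fewer genes were tested, and calls for lung against liver were 6715 on CS and 6820 on PS.

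Signs turned only for log2 differences near 0, none of them called. In liver, Acads became 0.0446 and 0.0488 with limma, and leaving out a library gave −0.38 to 0.09 for Acads, −0.10 to 0.13 for Acadm, −0.064 to 0.21 for Hadh and −0.10 to 0.38 for Acaa2. In lung, Slc25a20 was 0.0046 with the length trend removed, 0.0529 with the GC trend removed and −0.19 to 0.0695 with a library left out, and Acadm was 0.09 with the GC trend removed and −0.0843 to 0.0003. For the difference of diet effects, Acadl was −0.0024 with no filter, −0.0134 with the mouse block and −0.10 to 0.18 with a library left out, Acadm was 0.0787 with the mouse block, 0.17 with the shared mice and −0.21 to 0.0182, Hadhb was 0.16 with the shared mice and −0.37 to 0.11, and Slc25a20 was −0.0598 to 0.23. The cause was not tested.

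Replicate numbers do not pair CS with PS animals: deviations of same-numbered samples correlated at −0.395 to −0.027 in liver and −0.006 to 0.088 in lung. The replicate block gave 2 calls in lung, Acadvl and Hadha, in place of 1.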
